A study of Mus musculus with 8 samples.

Results

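The 50 protein-coding genes of the proteasome family are described here across mouse pancreas samples that carry, or do not carry, an added conditional allele named OG. They are those of 29621 genes whose GENCODE M21 symbol begins with Psm, a letter from a to g, and a number; the rule used no measured value. They comprise the subunits of the proteasome, its activators, its inhibitor and its dedicated assembly chaperones. Psmc3ip, a meiotic recombination protein, matched by symbol only and is kept apart as another gene.

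Whole pancreas of C57BL/6 mice at post natal day 42 was taken after perfusion, and its total RNA was sequenced after ribosomal depletion. The 4 libraries called KPC carry p48-Cre, an oncogenic allele under Cre control, and Trp53fl/fl. The 4 libraries called KPC-OG carry the same 3 alleles plus R26tm1(LSL-OG), so all 8 share the Cre driver, the oncogenic allele and floxed Trp53. p48-Cre is expressed from the Ptf1a locus, whose gene marks pancreatic progenitors and acinar cells, and the recombined cells were not separated from the rest of the organ. The labels do not say that replicates are separate mice, so p-values measure only the spread between these samples.

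The proteasome degrades proteins tagged with ubiquitin. Its core, the 20S particle, stacks rings of alpha and beta subunits, and Psmb5, Psmb6 and Psmb7 carry the peptide-cutting sites. Interferon-gamma induces Psmb8, Psmb9 and Psmb10, which take their places in the immunoproteasome and favour peptides that fit MHC class I. The 19S regulatory particle recognises, unfolds and feeds the substrates. The PA28 activators open the core in its place.

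Promoter sequence is shown first for Psmb10 and for a pair of constitutive catalytic genes, Psmb5 and Psmb6. Under the scaling used, Psmb10 was lower in KPC-OG and the means of the pair were higher, though the Psmb5 groups overlapped. Psmb7, the constitutive counterpart of Psmb10, had no matching promoter sequence. Sequences and start sites are RefSeq's on GRCm38.p6, where 42 of the 50 members matched in 45 windows of 250 bases before to 50 after the start. Each run is printed 5′ to 3′ on the gene's strand, up to the annotated gene start, with capitals marking the antioxidant response element core TGACNNNGC, searched on both strands.

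Psmb10, chr8:105938445-105938642, minus strand: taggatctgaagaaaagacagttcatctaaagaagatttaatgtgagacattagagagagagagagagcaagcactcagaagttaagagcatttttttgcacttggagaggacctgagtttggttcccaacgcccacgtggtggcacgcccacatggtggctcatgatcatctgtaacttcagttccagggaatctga

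Psmb5, chr14:54618023-54618245, minus strand: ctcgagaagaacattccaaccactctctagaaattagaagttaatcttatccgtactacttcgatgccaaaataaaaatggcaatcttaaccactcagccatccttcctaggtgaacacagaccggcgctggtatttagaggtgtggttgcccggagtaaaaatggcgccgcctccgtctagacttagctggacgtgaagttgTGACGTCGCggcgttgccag

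Psmb6, chr11:70525107-70525366, plus strand: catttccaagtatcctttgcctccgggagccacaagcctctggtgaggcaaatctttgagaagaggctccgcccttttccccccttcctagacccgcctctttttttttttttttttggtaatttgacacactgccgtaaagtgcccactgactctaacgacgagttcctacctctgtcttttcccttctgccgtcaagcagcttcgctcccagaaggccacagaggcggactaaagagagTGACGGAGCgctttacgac

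The element is bound by NFE2-type factors, and it was found in 6 of the 42 matched members (Psmb5, Psmb6, Psmc6, Psmd12, Psmd9 and Psme4). Under the scaling used, Psmb6 was higher and Psme4 lower in KPC-OG, and the others did not pass the test described below. The element occurs in 12.4% of all 32851 windows. The Psmb10 window held none of the 4 motifs searched, which were this one, the interferon-stimulated response element core (GAAA, any 2 bases, GAAA), the STAT site TTCNNNGAA, and CCAAT. The interferon element was found in 5 members (Psmb3, Psmd4, Psmd9, Psme1 and Psmg4) against 3.44% of all windows, and the STAT site in 3 (Psmb8, Psmd2 and Psmg1) against 8.30%. CCAAT was found in 15 members against 37.4%. A match is a description of letters and not a site shown to be bound. Short stretches are shown for an immunoproteasome catalytic subunit, an interferon-inducible activator and a core chaperone. Capitals mark the STAT site in Psmb8 and the interferon element, read on either strand, in the others. Unlike the runs above, these stretches lie past the GENCODE M21 start of the gene. From the RefSeq start site, the matches begin at -97 in Psmb8, 9 in Psme1 and 15 in Psmg4.

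Psmb8, chr17:34198088-34198117: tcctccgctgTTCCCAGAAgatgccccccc

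Psme1, chr14:55578493-55578522: cgagctgtgcTTTCGCTTTCccttcccgct

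Psmg4, chr13:34162969-34162998: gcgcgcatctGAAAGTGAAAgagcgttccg

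The KPC libraries held 7373286 to 11292570 estimated reads, and the KPC-OG libraries 13671606 to 18292115. The members together took 0.0462% to 0.0617% of counts in KPC and 0.116% to 0.235% in KPC-OG. Lars2 alone took 20.8% to 29.95% of counts in KPC and 3.73% to 7.11% in KPC-OG, and 10 of 11 tested acinar markers were lower in KPC-OG. Marker genes of pancreatic acini were the most abundant of the marker lists in every library, with a summed 306940 to 565686 CPM in KPC and 47144 to 161480 in KPC-OG. Higher in KPC-OG were 5 of 7 duct markers and 4 of 5 fibroblast markers. By the same test, described below, 17.4% of all genes were called higher and 16.6% lower. The values of the members depended on scaling. CPM, a gene's counts relative to the library total, is scaled here by TMM, which sets the typical gene level between libraries, and it is used to compare groups. TPM, the transcript abundance per length within a library, is used to compare genes. In whole tissue, fewer cells of a type and less RNA per cell cannot be told apart.

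Of the 49 members that passed the filter on low counts, 19 differed between KPC-OG and KPC by edgeR's quasi-likelihood test (Benjamini-Hochberg adjusted over all genes, threshold 0.05). Of these, 14 were higher in KPC-OG and 5 were lower. That is 38.8% of the members against 34.1% of all 14267 genes tested, so the share called was near the background. Over all genes, 17.4% were called higher and 16.6% lower. The members' median log2 fold change was 0.29, from -1.40 for Psmb10 to 1.31 for Psmg4, beside a median of 0.09 over all genes tested. With library sizes alone, without TMM, the median of all genes moved by 1.74 and 48 members were called higher and none lower. With library sizes re-centred on the median gene, 1 member was called higher (Psmg4) and 3 lower (Psmb10, Psmd6 and Psme4). The directions below are therefore relative to the typical gene under TMM.

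**Figure D1:**
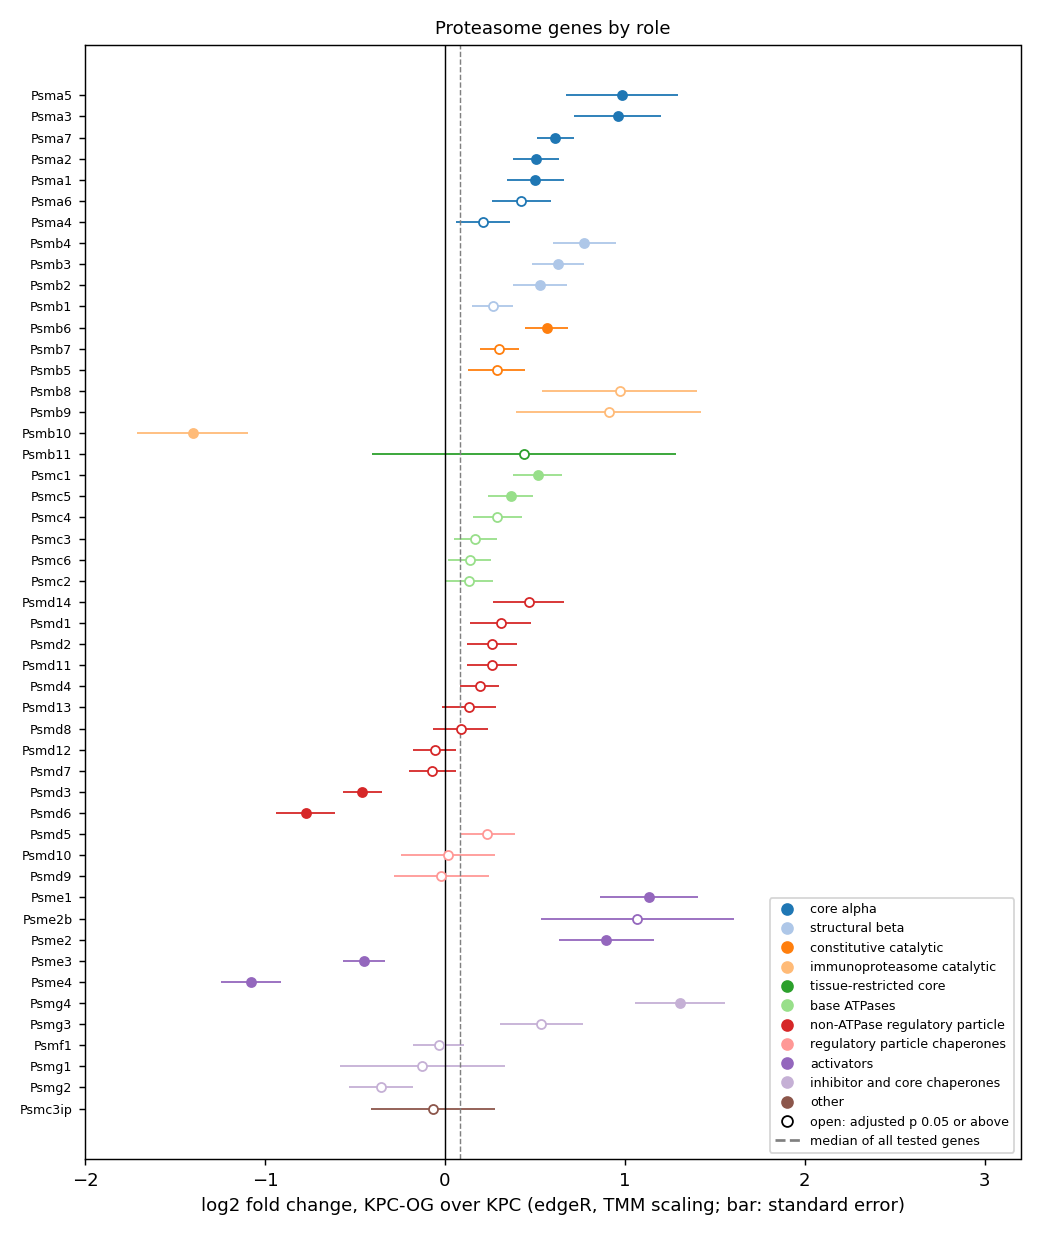
Log2 fold change of KPC-OG over KPC for each of the 49 members tested, grouped by role, with bars for 1 standard error and n = 4 per group. The constitutive core subunits lie above 0 under TMM scaling, while Psmb10, Psme4, Psmd6, Psme3 and Psmd3 lie below it; on TPM without re-centring those 5 also lie above 0.

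The levels differed between the parts of the complex. The median TPM of the structural beta subunits was 16.1, 26.8, 20.4 and 17.9 in KPC 1 to 4, and that of the alpha subunits 14.2, 18.3, 16.8 and 13.7. The base ATPases stood lower, at 8.53, 11.9, 9.44 and 9.99, and the non-ATPase subunits of the regulatory particle at 10.2, 13.6, 10.5 and 9.15. In KPC-OG 1 to 4 the structural beta medians were 89.8, 105, 49.2 and 98.8 TPM and the base ATPase medians 41.5, 43.1, 21.0 and 46.1. The structural beta median was thus above the base median in all 8 libraries, as it also was with protein-coding transcripts only. With those transcripts only, the alpha median was below the base median in KPC 2 (9.88 against 10.2 TPM) and KPC 4 (8.80 against 9.99 TPM). KPC-OG 3 was the lowest of its group on this scale.

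The alpha subunits form the outer rings of the core and its gate. Of the 7 measured alpha genes, 5 rose under TMM (Psma1, Psma2, Psma3, Psma5 and Psma7), none fell, and the median log2 fold change was 0.51. Among all genes tested, 17.4% were called higher. Psma7 was at 24.3, 24.8, 24.9 and 22.3 CPM in KPC 1 to 4 and at 37.4, 38.5, 35.8 and 35.7 in KPC-OG 1 to 4. The groups did not overlap and the spread within each was small (log2 fold change 0.61 ± 0.10 SE, edgeR adjusted p = 0.00196). Psma3 was at 21.2, 19.7, 9.55 and 11.5 CPM in KPC and at 31.0, 26.2, 37.2 and 27.3 in KPC-OG (0.96 ± 0.24, edgeR adjusted p = 0.0129). KPC 3 and KPC 4 were the low libraries, and the groups did not overlap. The Psma3 difference depended on which transcripts were summed. With protein-coding transcripts only, it was 0.03 with an adjusted p of 0.94. Psma3-201, a transcript annotated for nonsense-mediated decay, held 74.8%, 0%, 0% and 36.1% of the gene's reads in KPC 1 to 4 and 55.4%, 46.5%, 61.6% and 55.8% in KPC-OG 1 to 4, so its share varied widely within KPC and the groups overlapped. Psma2 differed by 0.51 ± 0.13 (edgeR adjusted p = 0.013), again with no overlap. Psma5 shares 63.5% of its 20-base words with other genes, mostly with Gm8394, so its reads are uncertain. Psma5 lost its call with 1 library left out, except KPC 2 or KPC-OG 4, and Psma1, except KPC 4 or KPC-OG 3 (edgeR adjusted p up to 0.0932 and 0.0953).

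The structural beta subunits hold the inner rings together without cutting. Of the 4, 3 rose under TMM (Psmb2, Psmb3 and Psmb4), none fell, and the median was 0.58. Psmb4 was at 21.6, 29.3, 18.04 and 20.1 CPM in KPC and at 43.6, 41.8, 30.3 and 37.1 in KPC-OG. All 4 KPC-OG libraries lay above every KPC library (0.78 ± 0.17, edgeR adjusted p = 0.00745). By TPM over all its transcripts, Psmb4 ranked first of Psmb1 to Psmb10 in all 4 KPC-OG libraries. By TPM of protein-coding transcripts only, it ranked 8 or 9 in all 8 libraries, at 31.5, 30.01, 16.2 and 31.8 TPM in KPC-OG 1 to 4. Psmb2 lost its call without KPC 1, KPC 3, KPC-OG 1 or KPC-OG 2 (edgeR adjusted p up to 0.0662). Over the whole constitutive core (Psma1 to Psma7 and Psmb1 to Psmb7), all 14 log2 fold changes were positive under TMM, 9 passed the test, and 9 did not overlap between groups. Of all genes tested, 34.1% passed the test, 17.4% were called higher, and groups did not overlap for 34.5%.

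Of the constitutive catalytic subunits, only Psmb6, the caspase-like site, passed the test. Psmb6 was at 25.6, 23.7, 22.0 and 25.0 CPM in KPC and at 40.2, 37.1, 31.8 and 33.6 in KPC-OG (0.57 ± 0.12, edgeR adjusted p = 0.00536). The groups did not overlap. Psmb7, the trypsin-like site, was at 21.8, 22.0, 18.3 and 21.6 CPM in KPC and at 26.7, 26.1, 25.8 and 24.8 in KPC-OG. Its groups also did not overlap, but the adjusted p of 0.0529 missed the threshold (0.30 ± 0.11). Psmb5, the chymotrypsin-like site, was at 18.5, 17.3, 15.1 and 14.5 CPM in KPC and at 24.7, 21.0, 17.8 and 16.3 in KPC-OG, and its groups overlapped (0.29 ± 0.16, edgeR adjusted p = 0.19).

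The 3 immunoproteasome catalytic subunits did not move together. None passed the test as higher (0 by edgeR, DESeq2 or limma-voom without a block, and 0 by that edgeR fit at an unadjusted p under 0.05, where Psmb8 was at 0.0504), and Psmb10 fell under TMM. Psmb10, which replaces Psmb7, lies on chromosome 8 from 105935735 to 105938444 of GRCm38 (ENSMUSG00000031897). It was at 75.2, 60.1, 71.9 and 65.2 CPM in KPC, a mean of 68.1 ± 6.79 (SD, n = 4). In KPC-OG it was at 19.5, 20.5, 47.1 and 16.6 CPM, a mean of 25.9 ± 14.2 (SD, n = 4). Every KPC-OG library lay below every KPC library, and KPC-OG 3 was far above the other KPC-OG libraries. The log2 fold change was -1.40 ± 0.31 (edgeR adjusted p = 0.0079), and -1.84 with an adjusted p of 1.92e-05 without KPC-OG 3. This direction rests on relative scaling: by deposited TPM, Psmb10 averaged 43.2 ± 3.40 in the KPC libraries and 45.7 ± 8.50 in the KPC-OG libraries (SD, n = 4 each), while most core subunits were several-fold higher in KPC-OG on that scale. By TPM, Psmb10 ranked first of Psmb1 to Psmb10 in every KPC library. In KPC-OG 1 to 4 it ranked 8, 9, 4 and 9, or 6, 7, 3 and 8 with protein-coding transcripts only.

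**Figure D2:**
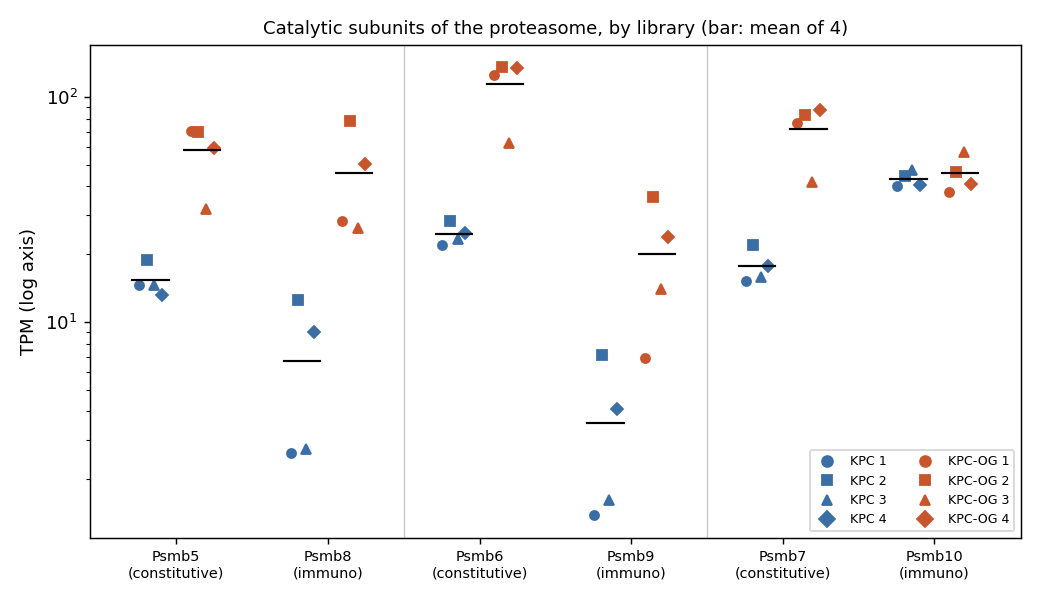
TPM of the 3 constitutive and 3 immunoproteasome catalytic subunits in each library, on a log axis, with 1 point per library. Psmb10 is at similar TPM in both groups, whereas Psmb5, Psmb6 and Psmb7 are higher in KPC-OG on this scale; relative to the typical gene, Psmb10 is lower in KPC-OG.

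The files list 1 transcript of Psmb10, Psmb10-201, which is protein-coding and 1270 bases long. GENCODE M21 annotates 7 transcripts of the gene, so with 1 listed all of its reads went to Psmb10-201 by construction. Psmb10-201 was assigned 394, 320, 271 and 386 estimated reads in KPC 1 to 4 and 639, 791, 720 and 558 in KPC-OG 1 to 4. Its GENCODE M21 version is 1311 bases long. Of the 1292 words of 20 bases in that version, 2 occur in another gene listed in the files, and none in Ctrl or Lars2. An annotated antisense gene, Gm16156, overlaps all 2710 bases of Psmb10 and has no row in the files; the strand of counting is not stated, so its reads cannot be told apart from those of Psmb10. On the same strand, 1872 bases from Psmb10, lies Ctrl, an acinar digestive protease. Ctrl was at 23990, 9649, 10505 and 14487 CPM in KPC and at 1185, 960, 5937 and 769 in KPC-OG (-2.73, edgeR adjusted p = 0.015). On this scale KPC-OG 3 was the highest KPC-OG library for Ctrl, for the summed acinar markers and for Lars2, as it was for Psmb10; as a share of counts, Lars2 was highest in KPC-OG 4. The part of these in the Psmb10 result was not tested. Lcat, the neighbour on the other side, differed by -1.81 without passing the test (edgeR adjusted p = 0.144).

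Psmb8, which replaces Psmb5, was at 4.58, 15.6, 4.51 and 13.3 CPM in KPC and at 12.1, 29.3, 18.2 and 16.4 in KPC-OG. KPC 1 and KPC 3 were low, the groups overlapped, and the difference missed the threshold (0.97 ± 0.43, edgeR adjusted p = 0.112). Psmb9, which replaces Psmb6, was at 1.34, 7.32, 1.86 and 5.07 CPM in KPC and at 3.62, 11.4, 8.77 and 6.22 in KPC-OG. Its low libraries were again KPC 1 and KPC 3, and KPC-OG 1 was the lowest of its group (0.91 ± 0.51, edgeR adjusted p = 0.201). Per length, Psmb9 was the least abundant of Psmb1 to Psmb10 in all 8 libraries. Psmb9 overlaps the peptide transporter gene Tap1 by 212 bases on the opposite strand, and 193 of its 20-base words are also in Tap1. The protein-coding Psmb8-203 held 39.3%, 41.3%, 19.5% and 40.2% of Psmb8 reads in KPC 1 to 4 and 55.0%, 51.8%, 54.2% and 59.1% in KPC-OG 1 to 4, but was assigned only 9.61 and 3.33 reads in KPC 1 and KPC 3. The protein-coding Psmb9-204 held 18.7%, 69.0%, 16.1% and 71.3% of Psmb9 reads in KPC 1 to 4, and 73.0%, 52.5%, 47.9% and 54.2% in KPC-OG 1 to 4. It had the largest share in each KPC-OG library and in KPC 2 and KPC 4, but not in KPC 1 and KPC 3, where it was assigned 1.27 and 1.11 reads.

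Leukocytes express the immunoproteasome constitutively, so a marker list of 16 leukocyte genes is given beside these values. Of its 15 tested members, 4 were higher and none lower, and no marker was at 0 in a whole group. The share called was 26.7%, beside 34.1% of all genes tested. The summed level of the list was 185, 487, 251 and 559 CPM in KPC and 616, 835, 985 and 878 in KPC-OG. Lyz2, a macrophage and neutrophil gene, made up much of that sum; without it the level was 86.7, 301, 91.5 and 341 CPM in KPC and 212, 407, 364 and 315 in KPC-OG, and the groups overlapped. Ptprc, which encodes the pan-leukocyte protein CD45, was at 17.8, 84.0, 17.5 and 95.9 CPM in KPC and at 31.1, 84.4, 81.4 and 50.2 in KPC-OG. KPC 1 and KPC 3, low in Psmb8 and Psmb9, were also low in Ptprc. The part of leukocyte content in these values was not tested.

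Ratios of TPM within a library need no scaling between libraries, and 5 of them were tested. All 70 ways of arranging the libraries were enumerated (two-sided exact permutation test), which allows no p below 0.0286. With any 1 library left out other than KPC-OG 1 or KPC-OG 4, the 3 ratios that passed over 5 comparisons no longer did (adjusted p = 0.0714 or 0.0952). Such smaller sets have fewer arrangements, so p moves in coarse steps, and all 3 differences kept their direction. In the full set, each of the 3 passed the adjustment only because all 3 stood at the smallest p. Psme1 and Psme2 were both set against Psme3. Over all transcripts, Psmb10 to Psmb7 was 2.66, 2.03, 2.98 and 2.28 in KPC and 0.491, 0.560, 1.37 and 0.471 in KPC-OG. The ratio was 3.79-fold higher in KPC, with no overlap (exact permutation p = 0.0286, adjusted p = 0.0476 over 5 ratios). With protein-coding transcripts only, Psmb7 was at 35.3, 45.7, 26.2 and 46.1 TPM in KPC-OG 1 to 4. Psmb10 was at 37.7, 46.6, 57.2 and 41.2 TPM there, so it lay below Psmb7 only in KPC-OG 4. The ratio was still lower in KPC-OG than in KPC on that basis. Psmb8 to Psmb5 was 0.179, 0.663, 0.188 and 0.686 in KPC and 0.400, 1.12, 0.827 and 0.847 in KPC-OG. These overlapped (exact permutation p = 0.171, adjusted p = 0.214). Psmb9 to Psmb6 was 0.0629 to 0.255 across KPC libraries and 0.0549 to 0.264 across KPC-OG libraries (exact permutation p = 0.657, adjusted p = 0.657).

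Over all transcripts, immunoproteasome subunits made up 46.1% to 49.0% of the summed TPM of the 6 catalytic genes in KPC and 21.1%, 35.7%, 41.8% and 29.1% in KPC-OG 1 to 4. Without Psmb10 and Psmb7 the share was 9.84%, 29.5%, 10.3% and 25.7% in KPC and 15.2%, 35.7%, 29.97% and 27.7% in KPC-OG. The separation between groups in the full share was therefore not seen once that pair was left out.

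**Figure D3:**
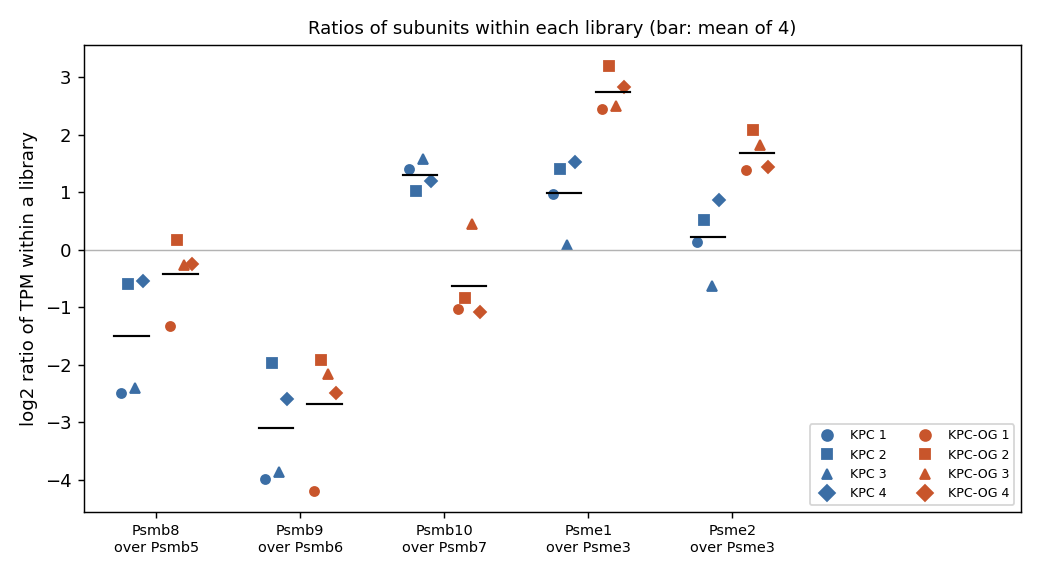
Log2 of 5 subunit ratios of TPM within each library, 1 point per library and 4 per group. Psmb10 to Psmb7 lies lower in KPC-OG, Psme1 and Psme2 to Psme3 lie higher, and Psmb8 to Psmb5 and Psmb9 to Psmb6 overlap.

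The activators divided by type. Psme1 and Psme2, the alpha and beta subunits of the interferon-inducible PA28, rose, and Psme3, the nuclear PA28 gamma, and Psme4, the PA200 activator, fell under TMM. Psme1 was at 11.6, 18.6, 9.29 and 23.1 CPM in KPC and at 32.4, 45.1, 26.1 and 35.5 in KPC-OG (1.14 ± 0.27, edgeR adjusted p = 0.0109). All KPC-OG libraries were above all KPC libraries, with KPC 1 and KPC 3 the lowest. Psme2 was at 8.40, 13.3, 6.10 and 16.0 CPM in KPC and at 21.0, 25.8, 19.3 and 16.8 in KPC-OG (0.90 ± 0.26, edgeR adjusted p = 0.0248). The groups lay close, and the call was lost with protein-coding transcripts only (edgeR adjusted p = 0.0684) and without KPC 1 (0.0769), KPC-OG 1 (0.0529) or KPC-OG 2 (0.0692). Psme2 shares 37.7% of its 20-base words with other genes. Psme2b, a near copy that shares 85.8% of its words, mostly with Psme2, did not pass the test (1.07 ± 0.54, edgeR adjusted p = 0.152), and its reads cannot be separated firmly from those of Psme2.

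Psme4 was at 92.2, 66.7, 83.3 and 90.3 CPM in KPC and at 40.4, 34.0, 49.9 and 33.5 in KPC-OG (-1.08 ± 0.17, edgeR adjusted p = 0.00149). The groups were far apart, and KPC-OG 3 was again the highest of its group. Psme3 was at 25.4, 29.5, 30.3 and 31.2 CPM in KPC and at 23.6, 20.3, 19.9 and 21.4 in KPC-OG (-0.45 ± 0.12, edgeR adjusted p = 0.0143). The ratio of Psme1 to Psme3 was 1.95, 2.64, 1.06 and 2.87 in KPC and 5.43, 9.16, 5.64 and 7.12 in KPC-OG. It was 3.36-fold higher in KPC-OG (exact permutation p = 0.0286, adjusted p = 0.0476). Psme2 to Psme3 was 2.75-fold higher by the same test, with the same p-values.

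Under TMM, 2 of 17 genes of the 19S regulatory particle rose, 2 fell and 13 did not pass the test, with a median of 0.17. The share called was 23.5%, beside the 34.1% over all genes. The ATPases of the base unfold substrates: Psmc1 rose by 0.52 ± 0.14 (edgeR adjusted p = 0.0148) and Psmc5 by 0.37 ± 0.13 (edgeR adjusted p = 0.0453). The Psmc5 call was lost in 16 of 20 alternatives, with any 1 library left out except KPC-OG 3 (edgeR adjusted p up to 0.127). Psmc1 shares 41.9% of its 20-base words with other genes, mostly Gm9575. Among the non-ATPase subunits, Psmd6 was at 44.5, 39.3, 41.1 and 33.8 CPM in KPC and at 24.1, 20.2, 29.99 and 18.8 in KPC-OG (-0.77 ± 0.16, edgeR adjusted p = 0.00573). Psmd3 was at 39.3, 34.4, 37.2 and 38.7 CPM in KPC and at 28.8, 24.9, 26.1 and 28.8 in KPC-OG (-0.46 ± 0.11, edgeR adjusted p = 0.00943). Neither overlapped between groups, and both encode scaffold subunits of the lid. None of Psmd5, Psmd9 and Psmd10, which chaperone assembly of the base, passed the test (edgeR; the smallest unadjusted p was 0.157, for Psmd5).

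**Figure D4:**
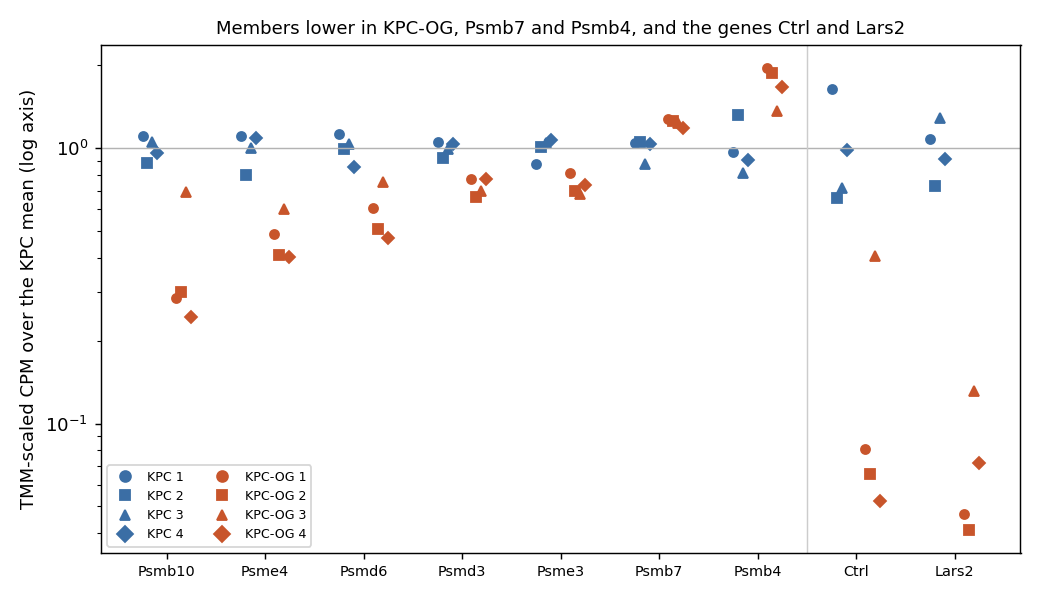
TMM-scaled CPM in each library over the gene's KPC mean, on a log axis, for the 5 members called lower in KPC-OG. Psmb7, Psmb4, Ctrl and Lars2 are shown beside them. KPC-OG 3 is the highest KPC-OG library for Psmb10, Psme4 and Psmd6; all 5 members turn positive on TPM without re-centring.

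Of the inhibitor and the core assembly chaperones, Psmg4 rose. It was at 2.10, 1.31, 1.86 and 1.52 CPM in KPC and at 3.68, 4.61, 4.71 and 3.78 in KPC-OG, with no overlap (1.31 ± 0.25, edgeR adjusted p = 0.00359). The Psmg4 mean of 1.70 CPM in KPC was below the 3.90 of Psmb9, so it rests on few reads there. Psmf1, the inhibitor PI31, and Psmg1, Psmg2 and Psmg3 did not pass the test. Psmg2 was at 4.78 to 6.42 CPM in KPC against 4.06 to 4.73 in KPC-OG, and Psmg3 at 2.10 to 3.04 against 3.10 to 4.35, so these groups did not overlap either (edgeR adjusted p = 0.146 and 0.0988). Psma8, the testis core subunit, failed the filter on low counts, with at most 0.751 CPM in KPC and 0.179 in KPC-OG. Psmb11, the thymus subunit, was at 0 to 1.33 CPM in KPC and 0.447 to 0.851 in KPC-OG (0.44, edgeR adjusted p = 0.721).

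Of a list of 25 proteasome partners, 3 were higher and 8 lower under TMM, with a median of -0.28. The share called was 44%, beside 34.1% of all genes tested. Pomp, the chaperone that completes core assembly, rose by 0.88 ± 0.17 (edgeR adjusted p = 0.00351), and Usp14, the deubiquitinase of the 19S particle, by 0.57 ± 0.12 (edgeR adjusted p = 0.00528). Akirin2, which carries proteasomes into the nucleus, was lower (-2.52 ± 0.42, edgeR adjusted p = 0.00229), as was Ecpas, which binds the 19S particle (-0.87 ± 0.15, edgeR adjusted p = 0.00193). KPC-OG 3 was the highest KPC-OG library for both. Zfand5, a ubiquitin-binding activator of the proteasome, rose by 0.61 ± 0.20 (edgeR adjusted p = 0.0384), and Ngly1, the cytosolic peptide N-glycanase, was lower (-0.86 ± 0.18, edgeR adjusted p = 0.00558). Of 21 tested genes of interferon-responsive peptide supply, 4 were higher, none lower, and the median was 0.21. Ifngr1, a receptor chain for interferon-gamma, rose by 1.40 ± 0.21 (edgeR adjusted p = 0.00131), Gbp2, an interferon-induced GTPase, by 1.21 ± 0.22 (edgeR adjusted p = 0.00294), and Ube2l6, the ISG15-conjugating enzyme, by 1.25 ± 0.24 (edgeR adjusted p = 0.0034). B2m, the MHC class I light chain, was the fourth (1.05, edgeR adjusted p = 0.0472) and was named after its values were seen. Tap1, next to Psmb9 and Psmb8, was at 7.26, 15.8, 5.04 and 19.2 CPM in KPC and at 11.05, 25.3, 15.4 and 14.9 in KPC-OG, and did not pass the test (0.47, edgeR adjusted p = 0.4). Tap1 was low in KPC 1 and KPC 3, the libraries that were low in Psmb8, Psmb9 and Ptprc.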

How the data were processed

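Sailfish 0.6.3 was the authors' quantifier, per the file headers (20-base k-mers, 1000 iterations, bias correction, Ensembl release 76 cDNA index). The deposited estimated counts are bias-corrected reads per transcript and need not be whole. The deposited TPM values are Sailfish's per-length abundances, bias corrected, per the file headers. STAR 2.0.4b, bcl2fastq, edgeR and limma are named in the submitters' processing notes, with no role given.

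Of 86127 transcripts, 83827 matched GENCODE M21 (GRCm38); the 2300 others, holding 1.45% to 4.23% of estimated reads, stayed out of library sizes and tests. Estimated counts were added up by gene and rounded to whole numbers. All 8 libraries were fitted with edgeR 4.0.16 (R 4.3.3, robust quasi-likelihood, TMM, filterByExpr, no block). TMM factors were 0.483 to 0.653 in KPC and 1.14 to 2.28 in KPC-OG. Each standard error is the size of the log2 fold change over the root of F. The fit was tested on simulated data. Sequence words, promoters and motifs were matched by exact letters, and words were sought only in transcripts that the files list.

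The members and lists were chosen with earlier results of these data known. Named are Psmb5 to Psmb10 and Psme1 to Psme4, then from each other role and list up to 3 called genes in each direction by adjusted p, filled up to 2 by level, members failing the filter, and neighbours of Psmb8, Psmb9 and Psmb10. Alternatives were RLE, library sizes only, no filter, DESeq2 1.42.0, limma-voom (limma 3.58.1), limma on log2(TPM + 1) and log2(TPM + 0.1), coding transcripts only, Lars2 left out, a replicate block and each replicate left out; re-centred TPM, levels over coding transcripts and the leukocyte sum without Lyz2 were added after seeing the data. Psmb10 has 1 transcript in the files, so its planned transcript share was not tested.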

Additional observations from a re-analysis of the deposited data

Results flagged for a closer look

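Among 66 groups of 4 libraries checked by Dixon's 95% criterion for the gap to the nearest library over the range, 3 had a library far from the others, and chance gives about 1 in 20. Psmb10 was at 47.1 CPM in KPC-OG 3, against 16.6 to 20.5 in the other KPC-OG libraries. The log2 ratio of Psmb10 to Psmb7 was 0.45 in KPC-OG 3, against -1.08 to -0.84 in the others. Psmb7 was at 18.3 CPM in KPC 3, against 21.6 to 22.0 in the other KPC libraries.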

How the results depend on the processing

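The count of members called (19) stayed between 14 and 18 with any 1 library left out, each with 5 lower, and was 15 to 19 under RLE, DESeq2, limma-voom, no filter, coding transcripts only and Lars2 left out. Over all genes it was 3446 to 5428 with 1 library left out. Scaling moved it most; the cause was not tested. Members and all genes called were 4 and 2317 with re-centred library sizes, 48 and 13177 without re-centring, 47 and 12848 on log2(TPM + 1), 48 and 12991 on log2(TPM + 0.1), and 7 and 2281, or 2 and 1438, when these were re-centred. Psmg4 was called in all 21 fits compared gene by gene, and Psmb10 in 19. Library sizes without re-centring, which gave no member lower, are not among those 21. Psma1, Psma5, Psmb2 and Psmc5 kept their direction but lost their call with 1 library left out, at 4 to 7 libraries each.

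On log2(TPM + 1) and log2(TPM + 0.1) without re-centring, reversed log2 fold changes were 0.065 and 0.066 for Psmb10, 1.08 and 1.13 for Psmd3, 0.81 and 0.84 for Psmd6, 1.02 and 1.08 for Psme3, 0.97 and 1.02 for Psme4, 1.18 and 1.54 for Psmd9, 1.38 and 1.59 for Psmf1, and 1.08 and 1.52 for Psmc3ip. Among the fits compared gene by gene, the other reversals were of Psmd9, Psmf1 and Psmc3ip, which lay near 0 and were not called. Psmb11, a gene of very low level, also reversed. Psmd9 was 0.014 with no filter, 0.052 with limma-voom, 0.015 with the replicate block, and reversed without KPC 1, KPC 3 or KPC-OG 4. Psmf1 was 0.00083 with no filter and 0.067 on re-centred log2(TPM + 1) and reversed without KPC 1. Psmc3ip was 0.017 with limma-voom and reversed without KPC 3. Psmb11 was -1.01 (adjusted p = 0.00701) and -0.29 on the re-centred TPM scales with pseudocounts 1 and 0.1, and below 0 without KPC 1 or KPC 4.

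The replicate numbers were not shown to pair the samples: same-numbered libraries deviated together with r of 0.27, 0.28, 0.04 and 0.04, and 2 of the 4 matched their own number best. With the replicate block, 22 members were called (17 higher, 5 lower), Psmb8 (adjusted p = 0.0177) and Psmb9 (adjusted p = 0.0444) among them. Blocked ratio differences kept their size (-1.92, 1.75 and 1.46 for Psmb10 to Psmb7, Psme1 to Psme3 and Psme2 to Psme3), but an exact sign-flip permutation of 4 pairs cannot go below 0.125. With 1 library left out they ranged from -2.28 to -1.77, 1.44 to 1.92 and 1.18 to 1.67; their adjusted p was 0.0714 or 0.0952 except without KPC-OG 1 or KPC-OG 4, where it was 0.0476. With 1 library left out, Psmb11 ranged from -0.049 to 1.34, Psmc3ip from -0.33 to 0.11, Psmd9 from -0.24 to 0.16 and Psmf1 from -0.12 to 0.041. The transcript share of Psmb10 was not run. KPC libraries limit the precision of low members: Psmb9 and Psmg4 rest on few reads there.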
